A study of Mus musculus with 4 samples.

Results

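Mammary organoids kept in a stiff matrix (STIFF) were set against organoids kept in a soft one (SOFT) by single-cell RNA sequencing, first over all cells and then within each cell class. The organoids came from mammary fat pads, freed of lymph nodes, of virgin mice 8 to 9 weeks old. The other cultures of the series were in collagen (COL1) and in Matrigel (MATR), a gel of basement membrane proteins. Strain, genotype, number of animals, days in culture and the measured stiffness of each matrix are not given in the sources used here, and no drug or genetic change is named. There was 1 culture for each condition and no replicate, so the differences below carry no test.

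Before pooling, the cells of each culture received a hashtag, an antibody whose attached sequence is read with the transcripts. A first droplet channel received the COL1 and STIFF cells, and the other the MATR and SOFT cells. STIFF and SOFT cells therefore never shared a channel, and the condition and the channel cannot be told apart in their ratio. COL1 over MATR is the other ratio between the same 2 channels. It shares no cells with STIFF over SOFT, and its values stand beside those of STIFF over SOFT for the main genes and lists. Which tag marked which culture is not stated in the labels, and the order of the names given to the deposited matrices was used.

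The members were chosen by tag. Barcodes were kept with 1000 or more UMIs (unique molecule counts), 500 or more genes and no more than 15% of UMIs from mitochondrial genes. It was called STIFF or SOFT when the second tag of its pool, divided by its background, was at least 2 times the first, and barcodes with both tags at 4 times background or more were dropped. Of 19382 deposited barcodes, 17513 were kept, and 5381 were called STIFF and 4173 SOFT, together 9554 cells. COL1 had 1780 cells and MATR 2958. Summed depth was 85143520 UMIs in STIFF and 62050616 in SOFT, with medians of 11920 and 12067 UMIs per cell. The tag that marked STIFF and SOFT cells stood a median of 6.75 and 6.80 times above its background, against 14.3 and 14.1 times for COL1 and MATR. The 2 pools shared 22 barcode sequences.

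The mammary duct is a bilayer. Contractile basal cells lie on the basement membrane, and luminal cells line the lumen. Luminal cells fall into hormone receptor-positive (HR-positive) cells, which sense oestrogen, progesterone and prolactin and pass the signal to their neighbours, and receptor-negative (HR-negative) cells, which hold the progenitors of milk-secreting cells. Cells read the stiffness of their surroundings through integrins and the actin cytoskeleton, and YAP and its partner TEAD are among the transcription regulators known to respond. Low oxygen stabilises hypoxia-inducible factors, which switch on glycolysis and angiogenesis genes.

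Clusters made over all 4 conditions were named from marker genes. The basal-like class was cluster 2 (Krt5, Acta2, Tagln), and HR-negative luminal-like cells were cluster 1 (Csn3, Wfdc18, Ltf). The HR-positive luminal-like class comprised clusters 0, 3 and 5, with 9 of 11 HR-positive markers raised in each. Clusters 9 and 10 were fibroblast-like (Col1a1, Col3a1), and cluster 10 also carried 8 of 9 pericyte markers, so the class may hold both. Cluster 6 was immune-like, led by the macrophage genes Lyz2 and C1qa. Markers of T and NK cells summed to 1.27 CPM (UMI counts scaled to a fixed total) in STIFF and 1.11 in SOFT, and those of B cells to 0.317 and 0.0967. Clusters 4, 7, 8, 11 and 12 carried markers of more than 1 class and stayed unnamed. Cluster 8 also had a median of only 1644 UMIs, and cell cycle genes led cluster 11. Tag calling, clustering and naming were redone here, so a difference from the study's own classes may come from rebuilt names.

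Basal-like cells made up 14.4% (13.5 to 15.4) of STIFF cells and 8.55% (7.72 to 9.44) of SOFT cells, where the brackets hold exact 95% intervals for counting error only. HR-positive cells made up 29.1% (27.9 to 30.4) of STIFF and 44.4% (42.9 to 45.9) of SOFT cells. The share of HR-negative cells was 21.9% (20.8 to 23.0) and 22.0% (20.8 to 23.3), which overlap. The cultures that shared a channel had like shares of the first 2 classes. COL1 held 12.4% basal-like and 29.7% HR-positive cells, close to STIFF, and MATR held 7.88% and 44.5%, close to SOFT. The basal-like and HR-positive shares therefore differed between the channels in the same direction in COL1 and MATR as in STIFF and SOFT. Within the basal-like class 4 of 13 basal markers were at least 1.5-fold higher in STIFF and none was lower. Of all measured genes in that class 4.3% were higher and 3.1% lower. Within the HR-positive class leading genes of clusters 0 and 5 differed as described with them. These shares and the levels are therefore not independent, and the shares are given as a description.

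Fibroblast-like cells were 5.87% (5.26 to 6.53) of STIFF and 4.17% (3.58 to 4.82) of SOFT cells, against 10.3% of COL1 and 4.26% of MATR. Immune-like cells were 4.66% (4.12 to 5.26) and 6.04% (5.34 to 6.80), against 7.87% and 4.97%. The unnamed clusters held 23.9% (22.7 to 25.0) of STIFF and 14.7% (13.7 to 15.8) of SOFT cells. The basal-like share depended on how tags were called. With an absolute tag call it was 9.99% in STIFF and 4.19% in SOFT, a ratio of 2.38 in place of 1.68. Barcodes on which neither tag led made up 20.8% of those kept from the pool of COL1 and STIFF and 5.32% from the pool of MATR and SOFT, and their part in the shares was not tested.

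**Figure D1:**
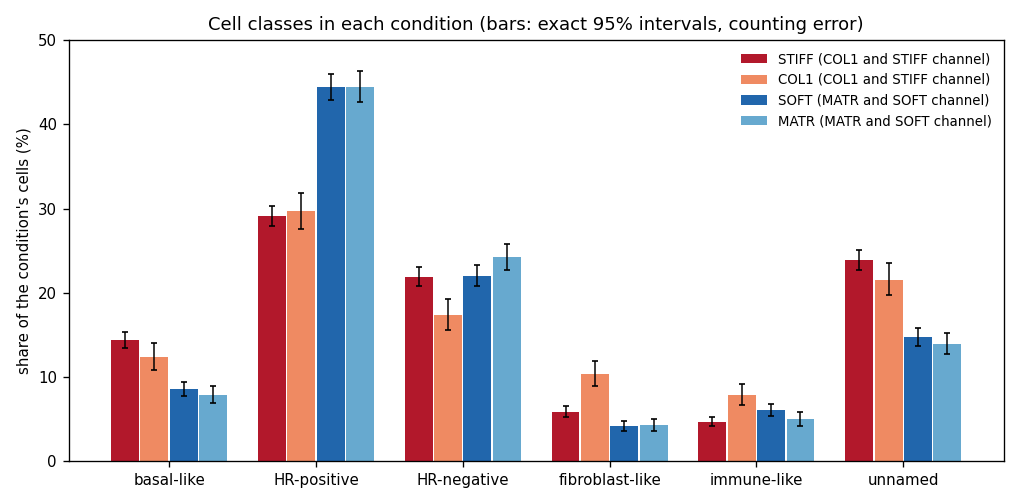
Share of each condition's cells (vertical axis, %) in 5 named classes and the unnamed clusters, with exact 95% intervals for counting error. STIFF and COL1, which shared a channel, stand near 29% to 30% HR-positive cells, and SOFT and MATR near 44%.

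For each gene the UMIs of all cells of a class were summed per condition and divided by the total, which gives CPM. A gene was measured when it reached 20 CPM in STIFF or SOFT, and it was called when STIFF and SOFT differed at least 1.5-fold on the scale of log2(CPM + 1), which shrinks the ratio of low genes. Folds below are plain ratios of CPM, with exact 95% intervals that cover counting error only. Over all cells 163 of 6008 measured genes were higher in STIFF, a background of 2.71%, and 106 were lower (1.76%). For the same genes, COL1 over MATR gave 4.31% higher and 1.15% lower. Of the 269 called genes, 42 differed at least 1.5-fold the same way in COL1 over MATR and 52 the opposite way.

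Scaling by the trimmed mean of M-values, which lets most genes set the zero, lowered the share of higher calls. The higher calls were 60.6% of all calls with division by total UMIs and 50% with that scaling. The immune-like class shifted most, from 78.5% to 52.8%, and fibroblast-like cells went from 62.1% to 50.1%. In HR-positive cells the majority turned, from 52.0% to 42.5%.

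**Figure D2:**
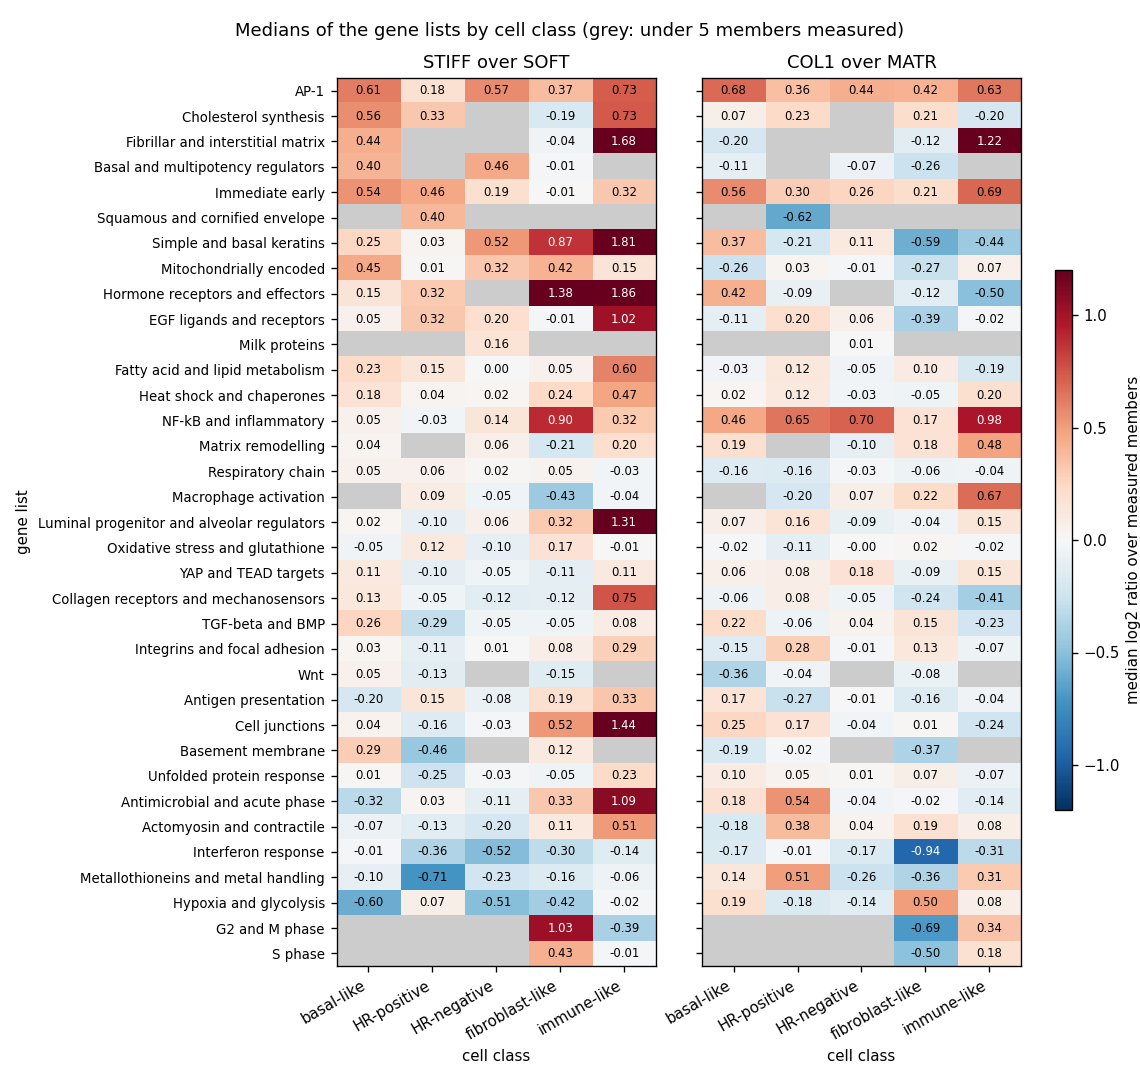
Median log2 ratio over the measured members of each gene list (rows) in 5 cell classes (columns), for STIFF over SOFT on the left and COL1 over MATR on the right. Hypoxia and glycolysis genes have a STIFF over SOFT median of -0.60 in basal-like cells, and AP-1 genes stand above 0 in every class and in both ratios.

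Hypoxia and glycolysis genes were lower in STIFF than in SOFT in basal-like, HR-negative and fibroblast-like cells. In basal-like cells 12 of 24 measured members of a list of 25 were lower and 0 were higher, against a background of 3.1% of measured genes that were lower in this class. Their median log2 ratio was -0.60, beside 0.02 over all measured genes and 0.19 for the list in COL1 over MATR. In HR-negative cells 8 of 23 were lower and 0 higher (background 1.69% lower), with a median of -0.51 beside -0.14 in COL1 over MATR. In fibroblast-like cells 10 of 23 were lower and 0 higher (background 3.14% lower), with a median of -0.42 beside 0.50. In HR-positive cells the median was 0.07, and 2 of 22 members, Ndrg1 and Ero1l, were lower (background 3.04%). The list's medians in the first 3 classes kept their sign under every alternative that was run within classes. Exchanging the tags of a pool was run over all cells only, so these medians were not tried against it.

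Of 22 members measured in basal-like, HR-negative and fibroblast-like cells, 19 lay below 0 in all 3, and 4 were at least 1.5-fold lower in each. These were Adm, Ero1l, Gpi1 and Ndrg1. Ndrg1, a gene induced by low oxygen and by differentiation, stood at 180.5 CPM in STIFF, 487 in SOFT, 471 in COL1 and 364 in MATR in basal-like cells. STIFF was the lowest of the 4 cultures, and SOFT lay 2.70-fold (95% interval 2.51 to 2.91) above it. Ero1l, an oxidase that forms disulphide bonds in the endoplasmic reticulum, stood at 53.4 CPM in STIFF, 260.1 in SOFT, 175 in COL1 and 129.8 in MATR, and SOFT was 4.87-fold (95% interval 4.32 to 5.49) above STIFF. Gpi1, a glycolytic isomerase, had log2 ratios of -0.73 in basal-like, -0.63 in HR-negative and -0.79 in fibroblast-like cells.

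Of the list, Adm differed most and Hk1, a hexokinase, least (-0.10) in basal-like cells. Adm, the vasodilator peptide adrenomedullin, was 8.66 CPM in STIFF, 54.0 in SOFT, 112 in COL1 and 23.8 in MATR. SOFT was 6.24-fold (95% interval 4.68 to 8.39) above STIFF, and COL1 was higher still, so Adm was lowest in the STIFF culture and highest in the culture that shared its channel. Vegfa, the main angiogenic growth factor, was 114 CPM in STIFF, 348 in SOFT, 346 in COL1 and 244 in MATR, and SOFT was 3.05-fold (2.78 to 3.33) above STIFF. Pgf, a relative of Vegfa that is not on the list, was 48.1 CPM in STIFF, 159 in SOFT, 121 in COL1 and 74.7 in MATR, 3.31-fold (2.89 to 3.80) higher in SOFT. For both growth factors SOFT and COL1 were the highest cultures and STIFF the lowest.

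Oxygen-sensing and transport genes were also lowest in STIFF in basal-like cells. Egln3, a prolyl hydroxylase that marks hypoxia-inducible factors for decay and is itself a target of them, was 37.2 CPM in STIFF, 153 in SOFT, 155 in COL1 and 136 in MATR. STIFF alone stood apart here, 4.10-fold (3.53 to 4.76) below SOFT. Car9, a carbonic anhydrase of the cell surface, was 60.7 CPM in STIFF, 176 in SOFT, 139 in COL1 and 122 in MATR, and Slc16a3, the lactate exporter MCT4, was 46.1 CPM in STIFF, 105 in SOFT, 90.9 in COL1 and 77.7 in MATR. Bnip3, a mitophagy receptor, was 114 CPM in STIFF, 233 in SOFT, 218 in COL1 and 166 in MATR, 2.04-fold (1.85 to 2.25) higher in SOFT. P4ha2, a prolyl hydroxylase that modifies collagen and is not on the list, was 15.7 CPM in STIFF, 87.7 in SOFT, 57.7 in COL1 and 31.3 in MATR, 5.58-fold (4.50 to 6.96) higher in SOFT. The glucose transporter gene Slc2a1 had a log2 ratio of -0.85.

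The glycolytic enzymes differed less. In basal-like cells Pgk1 had a log2 ratio of -0.67, Gpi1 -0.73 and Pfkp -0.69, all past 1.5-fold. Aldoa (-0.53), Gapdh (-0.52), Tpi1 (-0.52), Eno1 (-0.32), Pkm (-0.31) and Ldha (-0.19) lay below 0 but within 1.5-fold. Of the respiratory chain, the other route to ATP, 0 of 23 nuclear-encoded members were called in either direction in any of the 5 classes. The basal-like median was 0.05. In basal-like, HR-positive, HR-negative, fibroblast-like and immune-like cells 4.3%, 3.3%, 2.05%, 5.15% and 14.3% of all measured genes were higher. In the same order 3.1%, 3.04%, 1.69%, 3.14% and 3.93% were lower. With 1 culture each, the count does not show that the list was equal. Of 12 mitochondrially encoded transcripts, 4 were higher in basal-like STIFF cells (background 4.3%), from mt-Nd5 (0.61) to mt-Nd4l (1.42). The list median was 0.45 beside -0.26 in COL1 over MATR.

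In basal-like cells the shares of single cells with a UMI followed the same order. After thinning each cell to 3000 UMIs, Ndrg1 was detected in 36.8% (33.4 to 40.3) of basal-like STIFF cells and 60.9% (55.5 to 66.2) of basal-like SOFT cells. Without thinning these shares were 62.7% and 77.6%. Egln3 was detected in 10.7% (8.60 to 13.1) and 31.95% (27.0 to 37.2) after thinning, and Adm in 1.83% (1.003 to 3.05) and 12.7% (9.36 to 16.8). Basal-like cells that reached 3000 UMIs numbered 766 in STIFF and 338 in SOFT, and the median depth was 8682 and 6926 UMIs before thinning. In HR-positive cells Egln3 was at a lower level (10.8 CPM in STIFF, 16.5 in SOFT, 17.1 in COL1 and 21.3 in MATR). Its thinned share there was 3.13% (2.31 to 4.12) in STIFF and 5.25% (4.27 to 6.37) in SOFT, at median depths of 11361 and 11307 UMIs. Adm went the other way in HR-positive cells, with thinned shares of 10.9% (9.43 to 12.6) in STIFF and 8.47% (7.24 to 9.85) in SOFT.

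**Figure D3:**
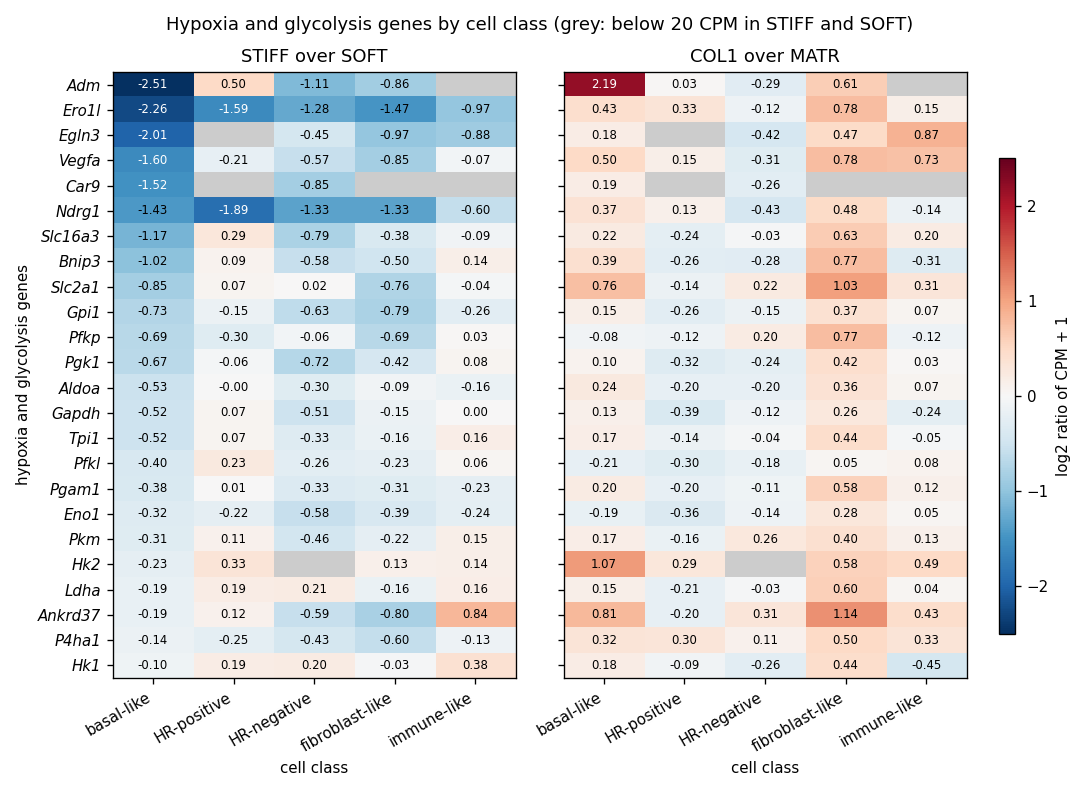
Log2 ratio of CPM + 1 for the hypoxia and glycolysis genes measured in basal-like cells (rows) in 5 cell classes (columns), STIFF over SOFT on the left and COL1 over MATR on the right. Blue fills the basal-like column on the left, from -2.51 for Adm to -0.10 for Hk1, while in the HR-positive column only Ero1l and Ndrg1 are at least 1.5-fold lower.

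The promoters of 3 of these genes are shown because the members were lower together and hypoxia-inducible factors bind the core ACGTG. Each runs from 250 bases before to 50 after the gene start, 5′ to 3′ on the gene's strand, from RefSeq on GRCm38.p6, the assembly also called mm10, with each match to ACGTG on either strand in capitals.
Bnip3 (chr7:138909457-138909756, minus strand): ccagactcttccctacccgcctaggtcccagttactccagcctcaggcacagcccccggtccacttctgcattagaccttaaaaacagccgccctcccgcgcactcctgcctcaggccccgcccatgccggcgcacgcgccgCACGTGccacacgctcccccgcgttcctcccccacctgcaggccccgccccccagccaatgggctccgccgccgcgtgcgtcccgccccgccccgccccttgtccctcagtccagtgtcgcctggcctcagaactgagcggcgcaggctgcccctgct
Egln3 (chr12:54203825-54204124, minus strand): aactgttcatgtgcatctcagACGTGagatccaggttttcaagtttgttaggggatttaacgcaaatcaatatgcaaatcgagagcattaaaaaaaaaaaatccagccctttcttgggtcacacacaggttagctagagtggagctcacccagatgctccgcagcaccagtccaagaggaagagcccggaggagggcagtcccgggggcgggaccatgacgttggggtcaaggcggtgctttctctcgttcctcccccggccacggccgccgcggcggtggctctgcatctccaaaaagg
Car9 (chr4:43506776-43507075, plus strand): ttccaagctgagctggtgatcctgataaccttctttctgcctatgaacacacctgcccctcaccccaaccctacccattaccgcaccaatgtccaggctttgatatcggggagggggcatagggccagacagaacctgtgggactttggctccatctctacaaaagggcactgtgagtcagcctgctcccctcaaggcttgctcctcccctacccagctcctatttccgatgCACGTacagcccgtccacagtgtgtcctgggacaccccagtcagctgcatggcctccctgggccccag
The core was present in the promoter window of 17 of the 23 list members that had an entry (73.9%), and in 21.8% of all 27025 genes in the table. Among measured genes it was in 30.8% of the 4788 with an entry, but these were 79.7% of the 6008 measured, under the 80% set for such a check, so that comparison is void. These are matches of letters and not measured binding sites. The share describes a list chosen for hypoxia and glycolysis genes, and not the difference between STIFF and SOFT. All 3 promoters shown hold a match, which not every member does.

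In HR-positive luminal-like cells the kallikreins Klk1b27 and Klk1, the peroxidase Gpx3 and the defensin Defb14 were far higher in STIFF, and Mt1, Mt2 and Ndrg1 were lower. Of 5782 measured genes 191 were higher (3.3%) and 176 lower (3.04%), and with the trimmed mean scaling 161 were higher and 218 lower. Klk1b27 (ENSMUSG00000063177, chr7:44052290-44056712), a secreted serine protease of the kallikrein family, stood at 363 CPM in STIFF, 0.565 in SOFT, 23.7 in COL1 and 10.7 in MATR. Its 7340 UMIs in STIFF against 13 in SOFT give a ratio of 642-fold (95% interval 375 to 1207), the highest among the genes named by rule in this class. Over all cells the ratio of Klk1b27 was 126-fold (98.8 to 163). Klk1 (ENSMUSG00000063903, chr7:44225360-44229622), a neighbouring family member that releases kinins, was 105 CPM in STIFF, 2.74 in SOFT, 29.3 in COL1 and 27.5 in MATR, 38.3-fold (95% interval 29.8 to 49.96) higher in STIFF than in SOFT. STIFF was far above the other 3 cultures for both, and SOFT was the lowest.

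Of 18 kallikreins listed, 2 were measured in the class, and in cluster 0 also Klk1b21 (24.7 CPM in STIFF and 0.509 in SOFT). Kallikrein genes are close copies of each other, so the split of reads between them is uncertain, and it was not tested. The promoters of Klk1b27 and Klk1 are shown because these genes were high together. Capitals mark the bases that differ or have no partner in a pairwise alignment, in which 188 of 300 bases (62.7%) were identical. Long stretches at the end of the Klk1b27 window and near the start of the Klk1 window have no partner. The 62.7% is therefore a share of the window and understates the likeness of the paired bases.
Klk1b27 (chr7:44052040-44052339, plus strand): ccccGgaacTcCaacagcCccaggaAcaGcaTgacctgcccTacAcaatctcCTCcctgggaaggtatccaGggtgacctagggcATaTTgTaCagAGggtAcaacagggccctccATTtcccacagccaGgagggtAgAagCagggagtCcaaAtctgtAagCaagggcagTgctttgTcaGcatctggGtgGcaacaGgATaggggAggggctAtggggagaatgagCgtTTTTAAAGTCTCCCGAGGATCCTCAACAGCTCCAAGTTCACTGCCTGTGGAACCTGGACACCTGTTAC
Klk1 (chr7:44225110-44225409, plus strand): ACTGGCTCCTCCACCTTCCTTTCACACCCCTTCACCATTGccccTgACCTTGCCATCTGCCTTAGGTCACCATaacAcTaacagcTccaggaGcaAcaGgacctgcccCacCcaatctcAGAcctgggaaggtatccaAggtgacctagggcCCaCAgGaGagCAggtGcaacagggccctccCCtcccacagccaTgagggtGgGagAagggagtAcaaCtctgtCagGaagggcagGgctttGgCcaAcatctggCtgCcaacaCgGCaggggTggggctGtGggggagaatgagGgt

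Klk1b27 was high in a minority of cells. After thinning to 3000 UMIs it was detected in 9.45% (8.03 to 11.02) of HR-positive STIFF cells and 0.109% (0.0132 to 0.394) of HR-positive SOFT cells (unthinned 13.4% and 0.216%). In HR-negative STIFF cells the thinned share was 1.44% (0.825 to 2.33), at a median depth of 10834 UMIs against 11361 in HR-positive cells. Of the 11243 Klk1b27 UMIs in STIFF cells, 65.3% lay in HR-positive cells and 4.99% in immune-like cells.

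Gpx3 (ENSMUSG00000018339, chr11:54902854-54910387), a secreted selenium enzyme that reduces peroxides, was 1550.3 CPM in STIFF, 173 in SOFT, 338 in COL1 and 756 in MATR in HR-positive cells, 8.96-fold (95% interval 8.66 to 9.26) higher in STIFF than in SOFT. It was detected in 56.7% (54.2 to 59.2) of STIFF and 15.96% (14.3 to 17.7) of SOFT cells after thinning, and in 4.50% (3.36 to 5.89) and 1.34% (0.696 to 2.34) of HR-negative cells. Defb14, an antimicrobial defensin, was 175 CPM in STIFF, 17.6 in SOFT, 38.5 in COL1 and 107 in MATR, 9.92-fold (95% interval 8.95 to 11.02) higher. For both genes the order of the other ratio was reversed: MATR was above COL1, with COL1 over MATR log2 ratios of -1.16 and -1.45. A second defensin, Defb1, was 349 CPM in STIFF, 117 in SOFT, 178 in COL1 and 153 in MATR.

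Hormone receptors and effectors differed in part. Calca, which encodes calcitonin and the neuropeptide CGRP, was 240.3 CPM in STIFF, 55.6 in SOFT, 173 in COL1 and 93.8 in MATR, 4.32-fold (4.06 to 4.60) higher in STIFF, and its paralog Calcb was 32.5 CPM in STIFF, 88.8 in SOFT, 77.4 in COL1 and 20.01 in MATR, 2.73-fold (2.498 to 2.98) lower. The prolactin receptor Prlr was 3045 CPM in STIFF and 1712 in SOFT, and the luminal transcription factor Gata3 was 472 CPM in STIFF and 307 in SOFT, log2 ratios of 0.83 and 0.62. The oestrogen receptor Esr1 (0.32), the progesterone receptor Pgr (0.10), Areg, an EGF receptor ligand induced by oestrogen (0.40), and Wnt4, a progesterone target (-0.13), lay within 1.5-fold. Of 13 measured genes of the hormone list 3 were higher and 1 lower (background 3.3% higher and 3.04% lower). Among the further genes named by rule, Tnxb, a matrix glycoprotein, was 115 CPM in STIFF, 23.0 in SOFT, 34.7 in COL1 and 57.2 in MATR, and Cbs, which makes cystathionine from homocysteine, was 56.1 CPM in STIFF, 11.2 in SOFT, 25.5 in COL1 and 37.9 in MATR.

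**Figure D4:**
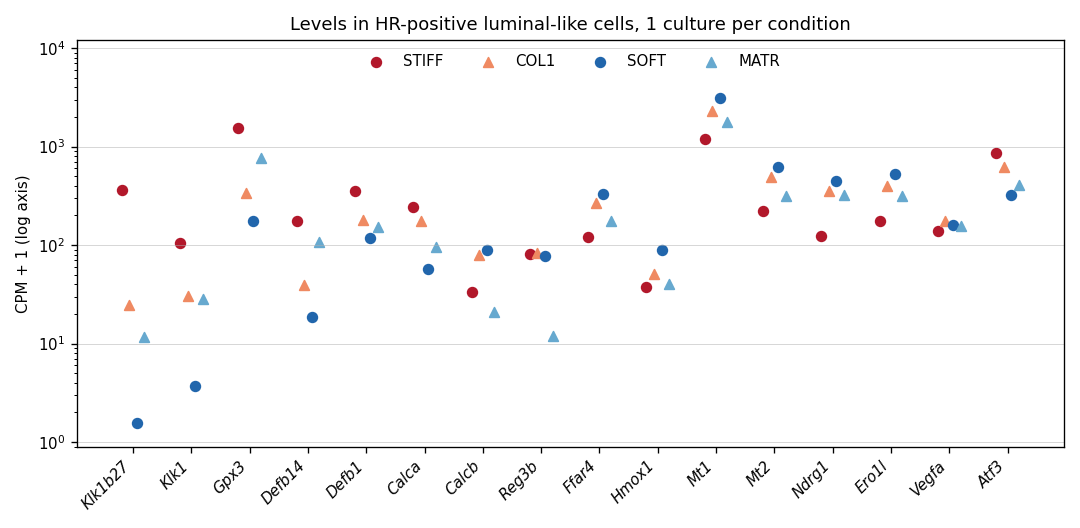
Levels of 16 genes in HR-positive luminal-like cells (CPM + 1, log axis), 1 point per culture. Klk1b27 spans from 0.565 CPM in SOFT to 363 in STIFF, whereas Mt1, Mt2, Ndrg1 and Ero1l are highest in SOFT and lowest in STIFF.

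Mt1 and Mt2, metallothioneins that bind zinc and copper, were lower in HR-positive STIFF cells. In a list of metal handling genes 3 of 6 measured in HR-positive cells were lower and 1 higher (background 3.3% higher and 3.04% lower). Mt1, Mt2 and the copper oxidase ceruloplasmin (Cp, -1.04) were lower, and the iron carrier transferrin (Trf, 0.65) was higher. Mt1 (ENSMUSG00000031765, chr8:94178883-94180327) was 1195 CPM in STIFF, 3126 in SOFT, 2316 in COL1 and 1761 in MATR in HR-positive cells, and SOFT was 2.62-fold (95% interval 2.58 to 2.65) above STIFF. Mt2 (ENSMUSG00000031762, chr8:94172618-94173567) was 218 CPM in STIFF, 619 in SOFT, 490.2 in COL1 and 314 in MATR, 2.83-fold (95% interval 2.74 to 2.93) higher in SOFT. Both were also lower in basal-like cells, where Mt1 had a log2 ratio of -0.94 and Mt2 -0.67. In HR-negative cells Mt2 (-0.63) passed 1.5-fold and Mt1 (-0.41) did not, and in fibroblast-like cells neither did (-0.27 and -0.31). In COL1 over MATR the HR-positive values were 0.39 and 0.64. Hmox1, the inducible haem oxygenase, was lower in STIFF in all 5 classes, from -1.02 in immune-like to -1.90 in HR-negative cells. Other genes of the oxidative stress list, with 19 measured, went both ways in HR-positive cells, against the same background. Besides Gpx3, the glutathione transferase Gsta4 (1.29) and the glutathione synthesis subunit Gclm (1.17) were higher, and Gsto1 (-0.83) was lower with Hmox1.

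The promoters of both metallothioneins are shown because the pair was lower together. The letters searched, TGCNCNC with N for any base, are a loose form of the core bound by the metal-responsive factor MTF-1. Matches on either strand are in capitals.
Mt1 (chr8:94178839-94179138, plus strand): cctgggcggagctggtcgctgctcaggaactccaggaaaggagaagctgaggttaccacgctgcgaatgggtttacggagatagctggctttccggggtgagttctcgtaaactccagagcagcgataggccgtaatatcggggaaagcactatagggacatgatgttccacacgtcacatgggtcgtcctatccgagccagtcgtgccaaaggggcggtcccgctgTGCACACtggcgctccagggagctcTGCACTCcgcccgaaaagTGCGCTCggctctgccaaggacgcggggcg
Mt2 (chr8:94172368-94172667, plus strand): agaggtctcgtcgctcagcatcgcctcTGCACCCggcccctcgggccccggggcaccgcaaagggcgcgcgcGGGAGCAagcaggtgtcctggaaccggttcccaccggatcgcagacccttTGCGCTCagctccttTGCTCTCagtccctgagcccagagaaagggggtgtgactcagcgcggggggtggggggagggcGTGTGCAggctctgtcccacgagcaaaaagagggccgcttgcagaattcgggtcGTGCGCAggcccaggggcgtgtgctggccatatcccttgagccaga
Mt1 had 3 matches and Mt2 6. The Mt1 window was placed on a start inside the gene span given above, which begins at 94178883. Most of that window and its 3 matches therefore lie within the span. Of 32851 promoters in the table, 51.0% held a match and 7.10% held at least 3. The loose form lets in matches that the factor's own core would not, so these are counts of letters and not of binding sites.

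Genes lower in HR-positive STIFF cells included Ndrg1 (121 CPM in STIFF, 451 in SOFT, 353 in COL1 and 322 in MATR) and Ero1l (175 CPM in STIFF, 527 in SOFT, 397 in COL1 and 317 in MATR). SOFT was 3.72-fold (3.56 to 3.89) and 3.02-fold (2.91 to 3.13) above STIFF. Epgn, an EGF receptor ligand, had a log2 ratio of -1.77, the BMP regulator Crim1 -1.58, and Inhba, which encodes the activin A subunit, -1.50. Gja1, the gap junction protein connexin 43, was 89.9 CPM in STIFF, 265 in SOFT, 189 in COL1 and 198 in MATR, 2.95-fold (2.80 to 3.11) higher in SOFT. The lipid receptor gene Ffar4 was 120.1 CPM in STIFF, 329.9 in SOFT, 266 in COL1 and 175 in MATR. Inhba was also lower in COL1 than in MATR (-0.74), Epgn was higher in COL1 (0.69), and the COL1 over MATR ratios of Ndrg1, Ero1l, Crim1 and Gja1 lay within 1.5-fold.

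Different clusters made up the HR-positive class in STIFF and SOFT, which bears on these ratios. STIFF had 1209 cells in cluster 0, 334 in cluster 3 and 24 in cluster 5, and SOFT had 623, 607 and 623. In the same order COL1 had 259, 165 and 105, and MATR had 1069, 128 and 119. Klk1b27, Calca, Defb14 and Gpx3 are among the 10 leading genes of cluster 0, and Ero1l, Epgn and Ffar4 among those of cluster 5, so the clusters and these differences are not independent. Within cluster 0 alone, Klk1b27 was 482 CPM in STIFF and 1.66 in SOFT, Klk1 135 and 2.29, Gpx3 2013 and 378, and Defb14 230.0 and 46.9. Mt2 had a log2 ratio of -1.43 there and Mt1 -0.97. Ndrg1 was -0.87 and Ero1l -0.48, the latter within 1.5-fold. Prlr (0.50) and Gata3 (0.45) lay within 1.5-fold in cluster 0. The COL1 over MATR log2 ratios within cluster 0 were -0.70 for Gpx3 and -0.90 for Defb14, smaller than in the whole class.

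Within cluster 3 alone most of these differences were smaller. Gpx3 had a log2 ratio of 0.60, Klk1b27 reached 2.05 CPM in STIFF, and Ndrg1 (-0.49) and Mt2 (-0.54) lay within 1.5-fold, as did Crim1 (-0.12), Epgn (-0.13), Inhba (-0.47) and Tnxb (0.04). Ero1l (-0.63), Mt1 (-0.67) and Calcb (-0.94) stayed past 1.5-fold there. Prlr (0.25) and Gata3 (0.33) did not, and Calca lay on the other side of 0 (-0.28). Cluster 3 had 105 genes higher and 58 lower (1.8% and 0.995% of measured genes). Among the genes named by rule there were Ptn, a heparin-binding growth factor, at 543 CPM in STIFF and 172 in SOFT, and the arginine-degrading enzyme Arg1 at 56.2 CPM in STIFF and 202 in SOFT. Atf3 was 907 CPM in STIFF and 414 in SOFT.

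Basal-like cells had 247 genes higher (4.3%) and 178 lower (3.1%) of 5738 measured. Besides the hypoxia genes above, Espn, which bundles actin, was 21.2 CPM in STIFF, 129.9 in SOFT, 96.7 in COL1 and 53.2 in MATR, 6.14-fold (95% interval 5.11 to 7.40) higher in SOFT, and Fxyd4, a regulator of the sodium pump, was 30.3 CPM in STIFF, 105 in SOFT, 89.0 in COL1 and 63.0 in MATR. Both were lowest in STIFF. In COL1 over MATR the log2 ratio of Espn was 0.85, opposite in sign to its -2.56 in STIFF over SOFT.

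Krt5, Krt14 and Krt15, keratins of basal cells and progenitors, were higher in basal-like STIFF cells. The basal keratin Krt5, a leading gene of the cluster, was 1026 CPM in STIFF, 566 in SOFT, 547 in COL1 and 691 in MATR, 1.81-fold (95% interval 1.72 to 1.91) higher in STIFF than in SOFT. Krt14 was 2148 CPM in STIFF, 1361 in SOFT, 1126 in COL1 and 1124 in MATR, and Krt15, a keratin of epithelial progenitors, was 113 CPM in STIFF, 37.7 in SOFT, 88.5 in COL1 and 67.9 in MATR, 3-fold (2.46 to 3.69) higher. Krt17 differed less, at 775 CPM in STIFF and 683 in SOFT. For Krt5 and Krt14 STIFF was the highest of the 4 cultures, and COL1 over MATR lay at -0.34 and 0.00. The contractile genes, which also define basal cells, gave no such pattern: 0 of 17 were higher and 1, Tpm2 (-0.66), was lower. The background in the class was 4.3% higher and 3.1% lower. Acta2 was 2991 CPM in STIFF and 2785 in SOFT.

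Of 13 measured fibrillar and interstitial matrix genes, 6 were higher in basal-like STIFF cells and 0 lower (background 4.3% higher and 3.1% lower), with a median of 0.44 beside -0.20 in COL1 over MATR. These were Col6a1 (0.99), the microfibril gene Fbn1 (0.91), the proteoglycan Dcn (0.91), fibronectin Fn1 (0.70), Col1a2 (0.70) and Spp1 (0.66). Summed fibroblast markers in the class were 179 CPM in STIFF and 183 in SOFT. Of 3 measured fibroblast markers 2, Dcn and Col1a2, were higher and Fbln1 lay at -0.49, and the part of fibroblast RNA in these values was not tested. Has2, which makes hyaluronan, was 68.0 CPM in STIFF, 26.9 in SOFT, 30.3 in COL1 and 45.3 in MATR, 2.53-fold (1.998 to 3.25) higher in STIFF. Emid1, a secreted protein with an EMI domain, was 149 CPM in STIFF, 55.4 in SOFT, 77.5 in COL1 and 103 in MATR, and Hpgd, which breaks down prostaglandins, was 281 CPM in STIFF, 123 in SOFT, 42.8 in COL1 and 82.3 in MATR, highest in STIFF.

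Regulators of basal identity gave 4 higher and 0 lower of 12 measured (background 4.3% higher and 3.1% lower), with a median of 0.40 beside -0.11 in COL1 over MATR. The R-spondin receptors and stem cell markers Lgr5 and Lgr6 had log2 ratios of 0.67 and 0.84, the transcription factor Bcl11b 0.87 and the tetraspanin Tspan8 0.99. Trp63, the master factor of basal cells, was at -0.25. Cholesterol synthesis genes gave 5 higher and 0 lower of 10, against the same background. Their median was 0.56 in basal-like, 0.33 in HR-positive and -0.19 in fibroblast-like cells, beside 0.07, 0.23 and 0.21 in COL1 over MATR.

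Lists of genes tied to stiffness sensing had medians near 0, with a few members past 1.5-fold. Of 16 measured YAP and TEAD targets in basal-like cells 3 were higher and 1 lower (background 4.3% higher and 3.1% lower), with a median of 0.11. Ccn1, a secreted YAP target, was 445 CPM in STIFF and 267 in SOFT (log2 ratio 0.73), and Ccn2, another, was 527 CPM in STIFF and 415 in SOFT (0.35). The YAP partner Tead1 (0.62) was past 1.5-fold and Yap1 (-0.06) was not, and Wwtr1, which encodes TAZ, was lower (-0.71). The list median was -0.10 in HR-positive, -0.05 in HR-negative and -0.11 in fibroblast-like cells. Integrin and focal adhesion genes had medians of 0.03, -0.11, 0.01 and 0.08 in the basal-like, HR-positive, HR-negative and fibroblast-like classes. In HR-positive cells 3 of 20 were lower, the integrins Itga3 (-0.77) and Itgb6 (-0.69) and the adhesion protein Zyx (-0.62), and 0 higher (background 3.3% higher and 3.04% lower). With 1 culture each, values near 0 do not show that the lists were equal.

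HR-negative cells had the fewest differences among the 5 classes, 113 genes higher (2.05%) and 93 lower (1.69%) of 5502. Apod, a lipid-carrying apolipoprotein, was 62.0 CPM in STIFF, 3.45 in SOFT, 10.7 in COL1 and 5.74 in MATR, 18.0-fold (95% interval 13.7 to 24.1) higher in STIFF than in SOFT. It was detected in 3.87% (2.81 to 5.18) of STIFF and 0.784% (0.316 to 1.61) of SOFT cells after thinning, against 0.586% (0.268 to 1.11) and 0.0547% (0.00138 to 0.304) in HR-positive cells. Cck, the peptide hormone cholecystokinin, was 53.7 CPM in STIFF, 10.2 in SOFT, 19.1 in COL1 and 28.9 in MATR, 5.28-fold (4.46 to 6.29) higher, and the membrane protein gene Pdzk1ip1 was 201 CPM in STIFF, 72.9 in SOFT, 105 in COL1 and 175 in MATR. STIFF was the highest culture for all 3.

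On the lower side, Timp3, an inhibitor of matrix metalloproteases, was 43.3 CPM in STIFF, 90.1 in SOFT, 41.8 in COL1 and 50.2 in MATR, and Cyp1b1, a cytochrome P450 that acts on oestrogens, was 33.7 CPM in STIFF, 65.4 in SOFT, 55.6 in COL1 and 40.2 in MATR. Espn was 19.9 CPM in STIFF, 62.3 in SOFT, 40.6 in COL1 and 40.6 in MATR, with a COL1 over MATR log2 ratio of 0.00. Hrct1 (-1.29) and Sparcl1 (-0.91), a matrix-associated glycoprotein, were also lower. Among milk protein genes Csn3 was 11168 CPM in STIFF and 6932 in SOFT (0.69) and Csn1s1 639 CPM in STIFF and 452 in SOFT (0.50). Past 1.5-fold was 1 of 6 (background 2.05% higher and 1.69% lower). HR-negative markers summed to 47952 CPM in STIFF and 38278 in SOFT.

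Interferon response genes were lower in HR-negative STIFF cells, 5 lower and 0 higher of 13 (background 2.05% higher and 1.69% lower). Ifit3 (-0.83), Isg15 (-0.77), Usp18 (-0.71), Ifit1 (-0.69) and Ifi27l2a (-0.60) passed 1.5-fold. The first 4 were also below 0 in COL1 over MATR, at -1.15, -0.38, -0.55 and -0.85. The list medians were -0.52 in HR-negative, -0.36 in HR-positive, -0.30 in fibroblast-like and -0.01 in basal-like cells for STIFF over SOFT. For COL1 over MATR they were -0.17, -0.01, -0.94 and -0.17.

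AP-1 subunits are transcription factors switched on quickly by growth signals and by stress. Their list had 4 higher and 0 lower of 8 measured in basal-like, 3 higher and 0 lower of 8 measured in HR-positive, 4 higher and 0 lower of 8 measured in HR-negative, 3 higher and 1 lower of 9 measured in fibroblast-like and 5 higher and 0 lower of 8 measured in immune-like cells. The share of all measured genes that were higher in these classes was 4.3%, 3.3%, 2.05%, 5.15% and 14.3%. Its median was above 0 in all 5 classes, for STIFF over SOFT and for COL1 over MATR. Atf3 was 522 CPM in STIFF, 164 in SOFT, 514 in COL1 and 257 in MATR in HR-negative cells, 3.18-fold (3.04 to 3.32) higher in STIFF than in SOFT. In basal-like cells it was 111 CPM in STIFF, 40.8 in SOFT, 121 in COL1 and 29.8 in MATR. Fos was 3464 CPM in STIFF, 1851 in SOFT, 3265 in COL1 and 2278 in MATR in HR-positive cells, and Fosb was 542 CPM in STIFF, 237 in SOFT, 547 in COL1 and 269 in MATR. In each of these the 2 cultures of the COL1 and STIFF channel stood above the 2 of the other channel.

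Over all cells the log2 ratios were 1.23 for Atf3, 1.19 for Fosb, 0.88 for Fos, 0.43 for Jun, 0.24 for Jund, 0.13 for Maff, 0.05 for Junb and -0.04 for Fosl2. Fosl1 was measured in fibroblast-like cells only, at -0.70. The list medians in basal-like, HR-positive, HR-negative and fibroblast-like cells were 0.61, 0.18, 0.57 and 0.37, and in COL1 over MATR 0.68, 0.36, 0.44 and 0.42. Dissociation of tissue into single cells also induces these genes, and its part was not tested. The immediate early list had 7 higher and 1 lower of 14 measured in basal-like, 5 higher and 0 lower of 11 measured in HR-positive and 4 higher and 1 lower of 14 measured in HR-negative cells, with medians of 0.54, 0.46 and 0.19. In these classes 4.3%, 3.3% and 2.05% of all measured genes were higher and 3.1%, 3.04% and 1.69% lower. The lower members were Cebpd in basal-like (-0.80) and Myc in HR-negative cells (-0.62). Klf6 and Klf2 are Kruppel-like transcription factors: Klf6 was 887 CPM in STIFF, 308 in SOFT, 740.4 in COL1 and 581 in MATR and Klf2 588 CPM in STIFF, 219.8 in SOFT, 540.2 in COL1 and 336 in MATR in HR-negative cells. Egr1, another such gene, was within 1.5-fold over all cells (0.28). In basal-like cells Egr3, a growth factor-induced zinc finger gene, was 50.3 CPM in STIFF, 22.4 in SOFT, 57.7 in COL1 and 27.5 in MATR, and the COL1 over MATR log2 ratio of 1.04 was close to its 1.13 in STIFF over SOFT.

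Fibroblast-like cells, 316 in STIFF and 174 in SOFT, had 308 genes higher (5.15%) and 188 lower (3.14%) of 5985. None of 20 fibrillar matrix genes was called in either direction, and Col1a1 (-0.27), Col3a1 (0.09) and Fn1 (-0.03) lay near 0. Matrix remodelling genes gave 5 lower and 0 higher of 20. The collagenase Mmp13 was 149 CPM in STIFF, 459 in SOFT, 684 in COL1 and 110.1 in MATR and the collagen cross-linker Lox 406 CPM in STIFF, 701 in SOFT, 675 in COL1 and 542 in MATR. Mmp13 was lower in STIFF by 3.07-fold (2.84 to 3.33), and COL1 over MATR ran the other way (2.62).

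Chemokine and NF-kB genes were higher in fibroblast-like STIFF cells, 7 higher and 1 lower of 12 (background 5.15% higher and 3.14% lower), with a median of 0.90 beside 0.17 in COL1 over MATR. Cxcl5, a neutrophil attractant, was 89.7 CPM in STIFF, 12.03 in SOFT, 4.16 in COL1 and 14.8 in MATR, 7.46-fold (5.45 to 10.5) higher in STIFF than in SOFT. Ccl2, a monocyte attractant, had a log2 ratio of 1.37, the NF-kB inhibitors Tnfaip3 and Nfkbia 1.78 and 1.16, and Il6 was lower at -1.21. Cxcl3 was 57.3 CPM in STIFF and 15.5 in SOFT, but with the cells of highest doublet score left out its log2 ratio was -2.73. Genes of G2 and M phase gave 12 higher and 0 lower of 15, with Mki67 at 56.5 CPM in STIFF and 15.7 in SOFT and Top2a at 67.8 CPM in STIFF and 25.2 in SOFT.

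Lower genes in this class included the retinoic acid-degrading enzyme Cyp26b1 (15.9 CPM in STIFF, 81.0 in SOFT, 52.8 in COL1 and 65.9 in MATR), the oxygen-responsive cytochrome oxidase subunit Cox4i2 (21.0 CPM in STIFF, 79.0 in SOFT, 86.9 in COL1 and 61.1 in MATR), the small GTPase gene Rasl11a (10.8 CPM in STIFF, 59.8 in SOFT, 49.5 in COL1 and 40.6 in MATR), Prr9 (-2.64) and the long non-coding RNA Meg3 (-1.78). Pf4, a platelet factor that macrophages also make, was 5.69 CPM in STIFF and 78.5 in SOFT. Genes of other cell types also differed in this class, and their part in its values was not tested. The milk protein Csn3 was 1018 CPM in STIFF and 231 in SOFT, Csn1s1 78.0 CPM in STIFF and 16.9 in SOFT and Wfdc18, another HR-negative marker, 493 CPM in STIFF and 141 in SOFT, and Prlr 210.2 CPM in STIFF and 57.0 in SOFT. The 12 HR-negative markers summed to 5213 CPM in STIFF and 2195 in SOFT, and the 10 myeloid markers to 355 and 947. Of the fibroblast-like cells 14.2% in STIFF and 10.3% in SOFT were among those with the highest doublet scores, and without them the HR-negative sums were 3511 and 1260.1 and the myeloid sums 294 and 456. Cluster 9 alone, without the cells that carried pericyte markers, gave 770 called genes in place of 496.

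**Figure D5:**
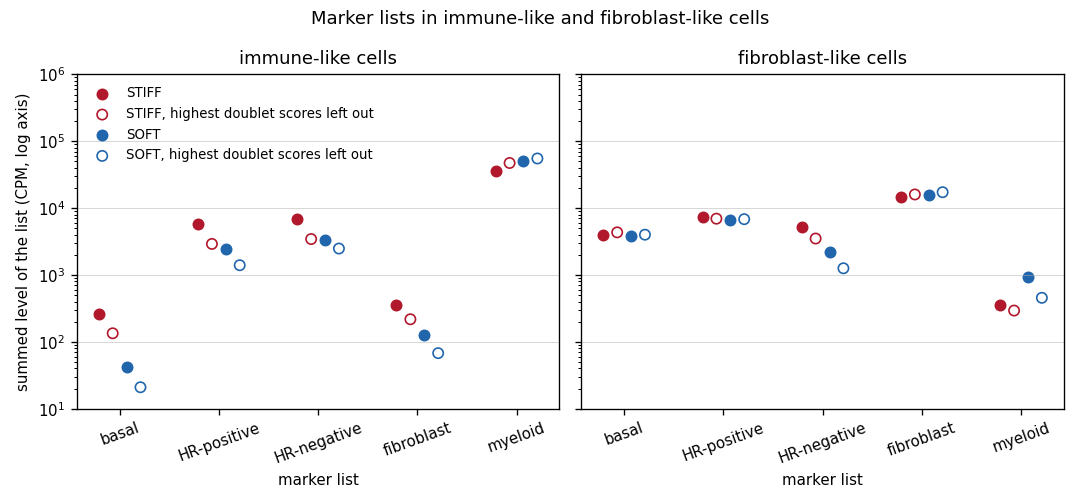
Summed level of 5 marker lists (CPM, log axis) in immune-like cells (left) and fibroblast-like cells (right) of STIFF and SOFT, with all cells (filled) and without those of highest doublet score (open). In immune-like cells every epithelial and fibroblast list is higher in STIFF than in SOFT, with and without those cells.

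Immune-like cells numbered 251 in STIFF and 252 in SOFT and had the most differences, 795 higher (14.3%) and 218 lower (3.93%) of 5550. The median log2 ratio of all measured genes was 0.17, and the trimmed mean scaling would subtract 0.23 from every value below. The highest genes were epithelial. Klk1b27 was 103 CPM in STIFF and 0.216 in SOFT (561 UMIs against 1), a ratio of 474-fold (95% interval 84.7 to 18753). Gpx3 was 599 CPM in STIFF and 51.3 in SOFT, Csn1s1 123 CPM in STIFF and 8.66 in SOFT and the luminal keratin Krt8 1194 CPM in STIFF and 265 in SOFT. HR-positive markers summed to 5777 CPM in STIFF and 2428 in SOFT, HR-negative markers to 6783 and 3374, basal markers to 257 and 41.5, and myeloid markers to 35939.7 and 50305. Cells among the highest doublet scores were 30.3% in STIFF and 11.5% in SOFT. Without them the HR-positive sums were 2916 and 1401, the myeloid sums 47325 and 55281, and the called genes 626 in place of 1013. The part of these cells in the other immune-like values was not tested beyond that.

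The lower genes named by rule were lower by more than the summed myeloid markers. Pf4 was 372 CPM in STIFF, 1525 in SOFT, 1480.1 in COL1 and 561 in MATR, and SOFT was 4.09-fold (95% interval 3.90 to 4.30) above STIFF. The acute phase gene Saa3 was 213 CPM in STIFF, 1269 in SOFT, 1598 in COL1 and 1755 in MATR, and here STIFF alone stood apart from 3 cultures above 1000 CPM. The gelatinase Mmp9 was 30.2 CPM in STIFF, 159.9 in SOFT, 169 in COL1 and 50.1 in MATR, the neutrophil collagenase Mmp8 6.76 CPM in STIFF, 61.0 in SOFT, 21.8 in COL1 and 11.2 in MATR, and the interferon-induced membrane genes Ifitm1 20.7 CPM in STIFF, 142 in SOFT, 135 in COL1 and 31.7 in MATR and Ifitm6 23.8 CPM in STIFF, 101 in SOFT, 75.3 in COL1 and 36.1 in MATR. For Pf4, Mmp8, Mmp9, Ifitm1 and Ifitm6 COL1 over MATR ran the other way, at 1.40, 0.90, 1.73, 2.06 and 1.04.

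Of 19 measured macrophage activation genes 7 were lower and 1 higher (background 14.3% higher and 3.93% lower). That background is over all genes, while the summed myeloid markers were themselves lower, at 35939.7 CPM in STIFF and 50305 in SOFT. The part of this in the 7 lower calls was not tested. The lower ones held Arg1 (683 CPM in STIFF and 1411 in SOFT), a marker of alternatively activated macrophages, and Nos2 (2.92 CPM in STIFF and 20.3 in SOFT), a marker of classically activated ones, together with Gatm (-1.11), the clotting factor gene F13a1 (-1.04) and Cd52 (-0.83). Apoe (0.01), Spp1 (0.00), Il1b (0.03) and Cxcl2 (0.00) were within 1.5-fold. The mannose receptor Mrc1 was higher, at 47.2 CPM in STIFF and 26.2 in SOFT. The macrophage marker Adgre1 was 123 CPM in STIFF and 267 in SOFT and Lyz2 23658 CPM in STIFF and 34056 in SOFT.

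Unnamed cluster 4 carried HR-negative and HR-positive markers, with 25219 median UMIs and a median doublet score of 0.126 against 0.0386 in cluster 0. It held 571 STIFF and 195 SOFT cells, and 159 genes were higher (2.71%) and 121 lower (2.06%). Genes that differed in the luminal classes differed here too: Klk1b27 was 169 CPM in STIFF and 7.41 in SOFT, Apod 62.2 CPM in STIFF and 2.59 in SOFT, Gpx3 817 CPM in STIFF and 149 in SOFT and Ffar4 60.5 CPM in STIFF and 157 in SOFT.

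Unnamed cluster 7, with HR-negative and basal markers and the YAP target Ankrd1 among its leading genes, held 212 STIFF and 285 SOFT cells. In it 142 genes were higher (2.4%) and 135 lower (2.28%). Krt17, a keratin of stressed and basal epithelium, was 1309 CPM in STIFF, 294 in SOFT, 302 in COL1 and 56.4 in MATR, 4.45-fold (4.19 to 4.73) higher in STIFF than in SOFT. The contractile genes Tagln and Acta2 were 1342 CPM in STIFF, 326 in SOFT, 572 in COL1 and 90.5 in MATR and 796 CPM in STIFF, 202 in SOFT, 314 in COL1 and 201 in MATR. Of 8 measured basal markers 6 were higher in this cluster and 1, the basal keratin Krt5 (-0.65), was lower. Egln3 (-1.44) and Car9 (-1.36) were lower in STIFF there too. For Krt17 and Tagln COL1 was above MATR as well (2.40 and 2.65), and MATR had 58 cells in the cluster.

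Over all cells, ratios follow both the class shares and the levels within classes. Krt5 had a log2 ratio of 1.67 over all cells and 0.86 within basal-like cells, which held 82.1% of its UMIs in STIFF and 73.4% in SOFT. Mgp (1.46), Gas1 (1.37) and Id4 (1.31) are leading genes of the basal-like cluster, and within it they stood at 0.93, 0.61 and 0.54. Pf4 (-2.14, and 0.32 with the COL1 and STIFF tags exchanged) lay mainly in immune-like cells, with 90.1% of its STIFF and 94.2% of its SOFT UMIs. With both conditions weighted to the same class mix, 208 genes were called in place of 269, and 101 of the 163 higher and 53 of the 106 lower genes were still called. Of the 12 highest and 12 lowest genes over all cells, 3 and 0 differed at least 1.5-fold the same way in COL1 over MATR, 2 and 3 the opposite way, and the others lay between.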

How the data were processed

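Single-cell RNA was read in 2 pools of hashtagged mammary organoid cells. The deposited matrices hold UMI counts per gene, barcode and tag, and each pool was deposited 2 times with identical entries and was read once. Per the submitters' processing notes the tools included Cell Ranger 5.0.0 and Seurat 4.2.0 with the build mm10, and no header or label gives their order or settings. The 2 pools held 133608252 and 131036333 UMIs over 10615 and 8767 barcodes.

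Barcodes were kept at 1000 UMIs, 500 genes and at most 15% mitochondrial UMIs, and called by the ratio of their tags over the backgrounds that the series gives. The scrublet caller of scanpy 1.11.5 marked 0 cells as doublets and so did not work here. Tags removed 420 and 391 barcodes with both tags, about 704 and 414 doublets within 1 tag are expected to remain, and the scores were used only to leave out the highest. Cells of all 4 cultures were clustered on 2000 variable genes, 30 components and 15 neighbours with the Leiden method of igraph 0.11.9 at resolution 0.5. Clusters were named from marker lists, and stayed unnamed where a further list reached 0.4 of the leading score, a ratio set after the data were seen. This rule was not applied between the fibroblast and pericyte lists.

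UMI counts were summed per class and condition and scaled to CPM. Ratios used a pseudocount of 1 CPM. Intervals are exact binomial 95% intervals from scipy 1.17.1, cover counting error only, and leave out the spread between cultures, of which there was 1 per condition. The calling code was tested on simulated data.

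Genes were named by rank: at least 200 UMIs over both conditions and 50 CPM in 1, the 12 highest and 12 lowest ratios over all cells, and 6 and 6 within a class among genes at 3 times the lowest other class. Keratins, kallikreins, metallothioneins, defensins, AP-1 subunits and the extremes of each list described were named as well. Other genes were named for their role after their values were seen, and some genes that the rule names are not reported here. The members and the 36 pathway and 12 marker lists were chosen with earlier results of these data known. Alternatives changed the pseudocount, the level for a measured gene, scaling, tag calls, cell filters, doublet scores, class mix and clustering. Exchanging the tags of a pool and taking clusters 0, 3 or 9 alone were chosen after seeing the data.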

Additional observations from a re-analysis of the deposited data

Results flagged for a closer look

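Among the genes named by rank, 6 had opposite signs of the difference between STIFF and SOFT in 2 cell classes, each at least 2-fold. Only classes where the gene stood at 3 times the lowest other class were looked at, so this is not a count over all measured genes. The difference between classes was not tested, since each class came from the same 2 cultures. Cck, the peptide hormone cholecystokinin, had a log2 ratio of 2.29 in HR-negative and -1.59 in fibroblast-like cells. Cyp26b1, which degrades retinoic acid, had 1.11 in basal-like and -2.28 in fibroblast-like cells. Has2, which makes hyaluronan, had 1.31 in basal-like and -1.28 in fibroblast-like cells. Ifitm1 had 1.11 in fibroblast-like and -2.73 in immune-like cells, and Saa3, an acute phase gene, had 1.65 and -2.57 in the same classes. Inhba, the activin A subunit, had 1.17 in immune-like and -1.50 in HR-positive cells. The trimmed mean scaling would subtract 0.23 from the immune-like value and so take it under 2-fold. HR-positive markers summed to 5777 CPM in STIFF and 2428 in SOFT in immune-like cells, and their part in this value was not tested.

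Signal was also present in data that the comparisons did not use. A further hashtag, assigned to no culture in the matrix names, had 13315 counts beside COL1 and STIFF and 13477 beside MATR and SOFT. Kept barcodes on which neither tag led numbered 1987 among COL1 and STIFF and 423 among MATR and SOFT.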

How the results depend on the processing

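No paired analysis was possible because each condition was 1 culture. Counts of called genes (main values 269 over all cells, 425 basal-like, 367 HR-positive, 206 HR-negative, 496 fibroblast-like, 1013 immune-like) followed the level at which a gene counts as measured. At 50 CPM they were, in that order, 144, 193, 212, 113, 216 and 472, and at 5 CPM 541, 1086, 724, 421, 1357 and 2362. Fewer or more genes are tested by construction. With a pseudocount of 10 CPM they were 244 basal-like, 119 HR-negative and 315 fibroblast-like. Without the highest doublet scores 626 immune-like genes were called. With tags ignored 168 genes were called over all cells. At resolution 1.0, and for cluster 9 alone, 770 fibroblast-like genes were called, and cluster 3 alone gave 163 HR-positive genes; the cause was not tested. The share ratios of STIFF over SOFT moved with a tag lead of 4 times (basal-like 2.03, HR-positive 0.715), an absolute tag call (2.38 and 0.762, HR-negative 0.816), without high doublet scores (immune-like 0.643) and with each pool clustered alone (HR-negative 1.12). Over 1092 values of named genes under alternatives, 1063 kept their direction and their side of 1.5-fold, 26 fell under it and 3 reversed. The 84 values at 50 CPM and the 84 at 5 CPM could not change, since that level does not enter a gene's ratio. Some settings also repeat the cells of another, so the 1063 overstates how far the values were tried. Reversed were Cxcl3 in fibroblast-like cells without high doublet scores (-2.73), and over all cells Cxcl14 with the MATR and SOFT tags exchanged (0.32) and Pf4 with the COL1 and STIFF tags exchanged (0.32); the cause was not tested. With those exchanges 290 and 213 genes were called over all cells. Of the 5 classes in STIFF and SOFT, depth limits the basal-like SOFT cells most, with 2941725 UMIs in 357 cells, and genes near 20 CPM are the least precise there.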
